A study of Mus musculus with 3 samples.

Results

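The 51 genes described here encode histone demethylases, deacetylases and methyltransferases, the enzymes that remove or add methyl groups and remove acetyl groups on histones. They were chosen by gene symbol alone, as the Kdm1 to Kdm8, Hdac, Sirt, Kmt2, Kmt5 and Setd families with Ezh1 and Ezh2, and each had to have a protein_coding transcript. They are 51 of 21901 genes with such a transcript in the GENCODE M21 annotation of mm10. The rule set aside Kdm5c, Kdm5d and Kdm6a by name, and 2 further matches had no protein_coding transcript, the antisense gene Kdm6bos (1 expected count in each library) and the pseudogene Kdm4dl (0 counts).

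Acetylation of histone tails opens chromatin, and histone deacetylases (Hdac genes, zinc-dependent, and Sirt genes, NAD-dependent) reverse it. Methylation marks carry different meanings by position: H3K4 marks promoters and enhancers in use, H3K36 marks transcribed gene bodies, and H3K9, H3K27 and H4K20 are linked to silent or compact chromatin. SET-domain enzymes write most of these marks and Kdm enzymes erase them. In macrophages, enhancers marked by H3K4 methylation and promoters held by deacetylase corepressors are a textbook setting for how an earlier exposure to bacterial products shapes the response to a later exposure.

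Primary macrophages, the phagocytes obtained here by growing bone marrow cells of C57BL/6J mice, were the source of RNA. They were given 100 ng/ml lipid A, the part of bacterial lipopolysaccharide sensed by Toll-like receptor 4, for 12 h, washed out for 12 h, and given 100 ng/ml lipid A again for 480 min, per the written description in the labels (their treatment fields read lipoprotein A). All 3 libraries, biological replicates 1, 2 and 3 of polyadenylated RNA, carry this treatment, so they form 1 group and no effect of lipid A can be measured. They share 1 donor record and the labels do not say that they came from separate animals, so the spread between them may be technical.

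Replicates 1, 2 and 3 held 24596382, 54016971 and 43127749 expected counts. Replicate 2 stood apart from the others. Mitochondrially encoded mRNAs took 6.86% of its counts against 1.06% and 1.13% in replicates 1 and 3, and over 10324 detected protein-coding genes (1 TPM or more in at least 1 library) its log2(TPM + 1) values correlated less with those of replicates 1 and 3 (Pearson r = 0.92 with each) than these did with each other (r = 0.98). These correlations are across genes, which are not independent replicates. All 8 macrophage markers were at 1 TPM or more in every library. Of the T cell markers, Cd3d, Cd3e, Cd3g, Cd8a and Lck stayed under 1 TPM in every library, while Cd4, which some macrophages also carry, stood at 20.0, 113 and 33.6 TPM. B cell, neutrophil, natural killer, erythroid, stromal and dendritic cell markers stayed under 1 TPM throughout apart from Cd79b (1.59, 1.76 and 3.22 TPM) and S100a8 (1.27, 6.91 and 2.45 TPM), and of 4 endothelial markers Pecam1 and Kdr were at 1 TPM or more in every library. Levels below are in TPM, which adjusts counts for the length of each transcript and for library size, and are listed in the order of replicates 1, 2 and 3 or as mean ± SD over them (n = 3). Each library was quantified in 2 ways, and values are from the first unless the second is named. In RNA from a whole culture, fewer cells that use a gene and less RNA per cell cannot be told apart.

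Most of these enzymes were present at moderate to low levels. At least 1 TPM was reached in every library by 47 of the 51 genes, where 43.1% of all genes with a protein_coding transcript did so. Of the other 4, Kdm8 and Setd4 were below it in replicate 2 alone and Hdac11 and Kdm4d in all libraries. Over protein_coding transcripts alone, 43 of the 51 reached it in every library. The median gene of the set had a mean of 9.29 TPM and the median detected protein-coding gene 15.2 TPM, a difference of medians of -0.65 on the log2(TPM + 1) scale with an SD of 0.16 over libraries. Against all 21901 protein-coding genes, most of which were not detected, the same difference was 2.97. Of the 51 genes, 18, 17 and 16 were highest in replicates 1, 2 and 3 (26.9%, 27.2% and 45.9% of detected protein-coding genes), and 11, 25 and 15 were lowest there (25.3%, 58.5% and 16.2%). Together the 51 genes took 0.189%, 0.217% and 0.187% of expected counts.

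**Figure D1:**
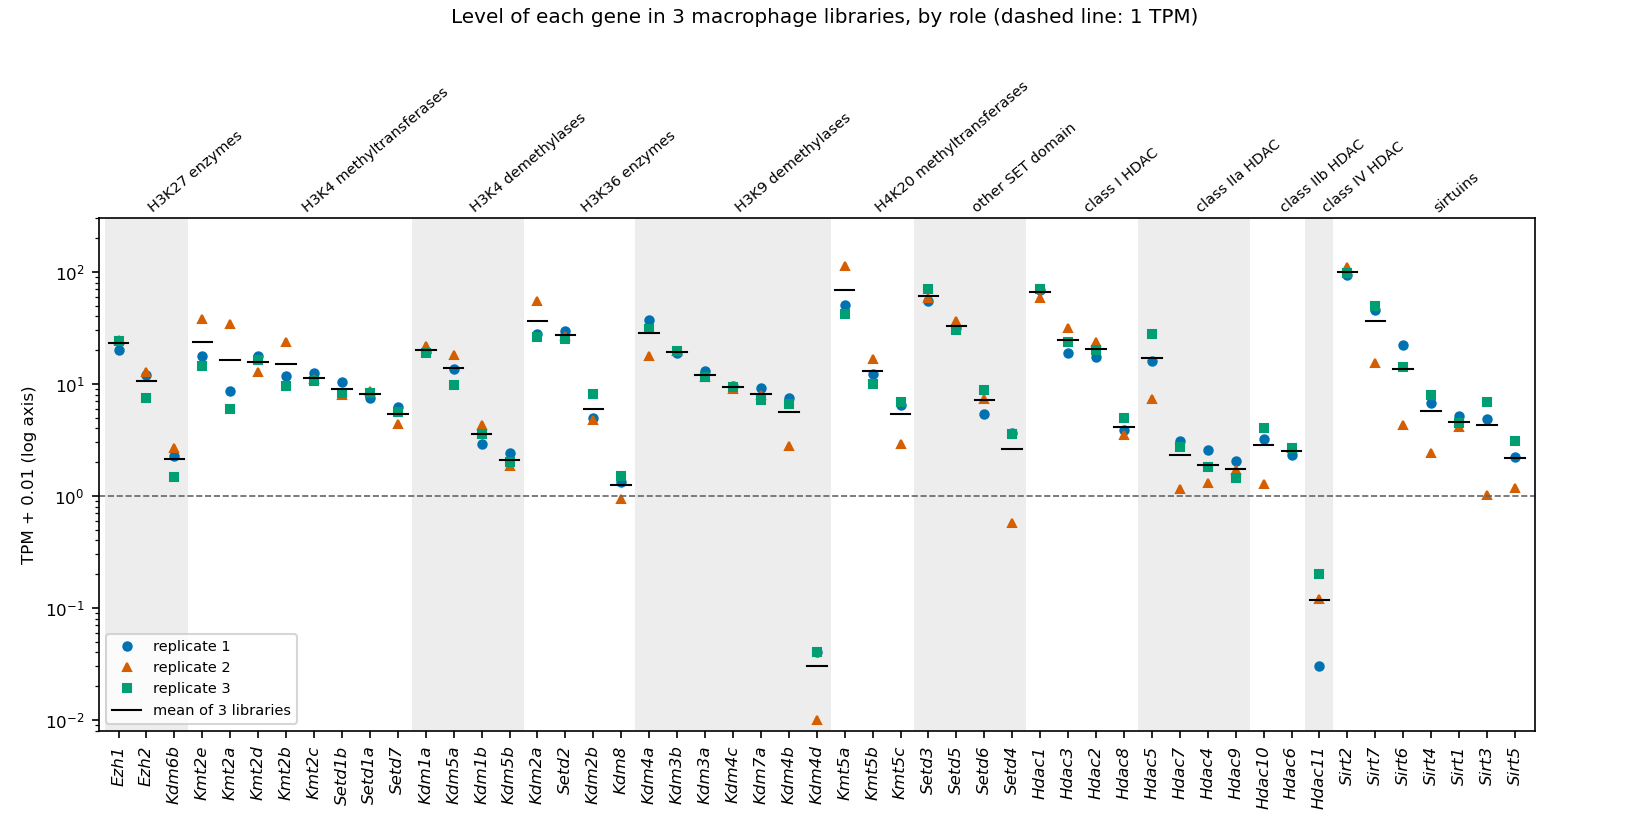
TPM of each gene in each library (points, log axis, 0.01 added so that a value of 0 can be drawn) and the mean of the 3 libraries (black bars), grouped by the mark or class of enzyme. Sirt2, Kmt5a, Hdac1 and Setd3 have the highest means, only Hdac11 and Kdm4d lie below 1 TPM in all libraries, and the triangles of replicate 2 lie apart from the other libraries for many genes.

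The H3K27 writers lay above the H3K27 demethylase Kdm6b in each library. Kdm6a was set aside by the rule and has no level here, so H3K27 erasers are covered only in part. Kdm7a, which acts on H3K9 and H3K27, stood closer to Ezh2, at 9.19, 7.88 and 7.10 TPM. Ezh1 and Ezh2, the catalytic subunits of polycomb repressive complex 2 (PRC2) that methylates H3K27, stood at 19.9, 24.7 and 24.4 TPM and at 11.9, 12.7 and 7.45 TPM. The H3K27 demethylase Kdm6b (chr11:69398508-69413675, minus strand), long known as a gene that macrophages raise on contact with lipopolysaccharide, stood at 2.27, 2.64 and 1.46 TPM. Kdm6b lay below Ezh2 in each library, by -2.34, -2.22 and -2.28 log2 units (mean -2.28 ± 0.06), which was the steadiest of the 20 ratios between related genes on this scale (-1.90 ± 0.17 over protein_coding transcripts alone). Ezh1, which is typical of resting cells, lay above Ezh2, which is typical of dividing cells, in each library. The log2 ratio of Ezh2 to Ezh1 was -1.13 ± 0.50, a mean that did not exceed 3 SD. The PRC2 partners were present beside them. All 9 were detected and 8 were at 1 TPM or more in every library, led by the subunit Eed (41.8, 66.9 and 56.0 TPM), the histone-binding Rbbp7 (52.3, 52.3 and 60.0 TPM) and Rbbp4 (34.4, 23.5 and 47.4 TPM), with Phf19 lowest at 1.30, 0.75 and 0.95 TPM. Among 7 markers of dividing cells, Pcna, which also serves DNA repair, stood at 189.8 ± 37.7 TPM, far above the rest. Cdk1, Mki67, Mcm5, Top2a and Mcm2 had means of 16.2, 4.82, 4.75, 3.84 and 3.18 TPM. Ccnb1 was lowest at 1.39 ± 0.44 TPM.

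All 8 genes of the H3K4 methyltransferase group were expressed, and the highest means of the group rested on replicate 2. The MLL-family genes Kmt2a and Kmt2b, which mark promoters, stood at 8.65, 34.2 and 5.96 TPM and at 11.7, 23.6 and 9.65 TPM. Kmt2e, a family relative without clear methyltransferase activity of its own, stood at 17.9, 38.2 and 14.5 TPM. In TPM, replicate 2 was the highest library for these 3 genes. In counts scaled for library size by edgeR it stayed highest for Kmt2a and Kmt2e but not for Kmt2b. The log2 deviations of Kmt2b from the mean were 0.19, -0.08 and -0.10. Kmt2c and Kmt2d, which prime enhancers, varied less in TPM, at 12.5, 11.1 and 10.6 and at 17.9, 12.7 and 16.3. In scaled counts the SD of Kmt2b was 0.16 log2 units, against 0.40 for Kmt2c and 0.31 for Kmt2d. Setd1a (7.49, 8.63 and 8.32 TPM) and Setd1b (10.4, 7.99 and 8.30 TPM), the main writers of H3K4 trimethylation, were close to each other, with a log2 ratio of -0.12 ± 0.31 that changed sign between libraries. The level of Setd1a is uncertain, since 51.9% of its exonic bases also belong to another annotated gene on its strand. Setd7, which adds a single methyl group to H3K4 and to other proteins, was lowest of the group at 6.27, 4.38 and 5.55 TPM. Their partners in the COMPASS complexes were all at 1 TPM or more in every library (10 of 10), from Dpy30 (29.6, 31.0 and 32.1 TPM), Ncoa6 (28.9 ± 7.60 TPM) and Rbbp5 (27.3 ± 5.17 TPM) to Paxip1 (5.17 ± 0.26 TPM).

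Among the H3K4 erasers of the set, Kdm1a lay above Kdm1b and Kdm5a above Kdm5b in each library. Kdm5c and Kdm5d were set aside by the rule, so the Kdm5 family is covered only in part. Kdm1a, the flavin-dependent demethylase that works in the CoREST complex, stood at 19.1, 21.7 and 18.9 TPM and its relative Kdm1b at 2.88, 4.31 and 3.57 TPM. The log2 ratio was 2.46 ± 0.21. Kdm5a, a JmjC-type H3K4 demethylase, stood at 13.7, 18.1 and 9.72 TPM and Kdm5b at 2.39, 1.83 and 2.01 TPM, with a log2 ratio of 2.64 ± 0.53. Over protein_coding transcripts alone it was 1.60 ± 0.31. Kdm1a varied so little that its counts (841, 1566 and 1561) did not differ between libraries beyond counting noise.

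Among H3K36 enzymes, Setd2, which writes H3K36 trimethylation over gene bodies, stood at 29.9, 26.6 and 25.1 TPM. Its scaled counts were less even, with log2 deviations from the mean of -0.15, 0.50 and -0.35. Kdm2a, a demethylase that binds unmethylated CpG islands, stood at 27.9, 55.3 and 26.3 TPM, and its relative Kdm2b at 4.92, 4.76 and 8.18 TPM. Kdm2a exceeded Kdm2b in each library, but the log2 ratio of 2.55 ± 0.92 did not pass 3 SD. Over protein_coding transcripts alone (2.25 ± 0.56), by CPM, and without replicate 2 or replicate 3 it did. Kdm8 was near the detection threshold, at 1.32, 0.93 and 1.48 TPM from 48, 45 and 98 counts.

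The H3K9 demethylases ranged from Kdm4a, among the higher genes of the set, to Kdm4d, the lowest. Kdm4a, which acts on H3K9 and H3K36, led at 37.1, 17.6 and 30.7 TPM. It exceeded Kdm4b (7.51, 2.78 and 6.60 TPM) by 2.37 ± 0.22 log2 units and Kdm4c (9.49, 8.93 and 9.44 TPM) by 1.54 ± 0.51. In the second quantification the ratio of Kdm4a to Kdm4b was 1.73, and that of Kdm4a to Kdm4c was no longer separated over protein_coding transcripts, with a pseudocount of 1, or without replicate 1 or replicate 3. Kdm4d, known mainly from testis, had 1, 0 and 2 counts, and the 0 of replicate 2 allows up to 0.033 TPM (3 counts, counting error only). Kdm3b (18.9, 19.6 and 19.8 TPM) exceeded Kdm3a (13.0, 11.6 and 11.6 TPM) in each library, with a log2 ratio of Kdm3a to Kdm3b of -0.68 ± 0.13. This was the smallest difference that was still separated. Of the exonic bases of Kdm3b, 24.6% lie opposite another annotated gene, and whether counting used strand is not given in the sources used here. Kdm7a, a demethylase of H3K9 and H3K27, stood at 8.06 ± 1.06 TPM.

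The H4K20 writers were led by Kmt5a. Kmt5a (chr5:124439930-124462308, plus strand), which adds the first methyl group to H4K20, stood at 50.2, 113 and 41.9 TPM. Kmt5b and Kmt5c, which extend it to di- and trimethylation, stood at 12.2, 16.6 and 9.99 TPM and at 6.46, 2.88 and 6.93 TPM. Kmt5a exceeded Kmt5b by 2.29 ± 0.41 log2 units, and by 1.65, 1.30 and 1.54 in the 3 libraries over protein_coding transcripts alone. The mean of Kmt5a, 68.5 ± 39.0 TPM, was below that of Sirt2 alone in the set, but this rank rested on replicate 2. Without that library it was 46.1 TPM, below Hdac1, Setd3 and Sirt7 as well, and over protein_coding transcripts 33.7 TPM, below Hdac1 and Setd3.

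Of the remaining SET-domain genes, Setd3 and Setd6 are known for targets outside histones. Setd3, a histidine methyltransferase of actin, stood at 54.9, 58.1 and 69.9 TPM. Setd5 stood at 31.8, 36.4 and 30.2 TPM. Both had libraries close together in TPM. The scaled counts of Setd5 were less even, with log2 deviations from the mean of -0.20, 0.53 and -0.33. Setd6, known for methylating the NF-kB subunit RelA, stood at 5.36, 7.29 and 8.88 TPM. Setd4 stood at 3.64, 0.56 and 3.59 TPM from 35, 21 and 52 counts.

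Class I deacetylases, the core of the nuclear corepressor complexes, were led by Hdac1. Hdac1 (chr4:129516104-129542713, minus strand) stood at 68.3, 58.9 and 69.8 TPM and its close relative Hdac2 at 17.5, 23.6 and 20.1 TPM, a log2 ratio of 1.69 ± 0.33. Hdac3, the enzyme of the NCoR and SMRT complexes, stood at 19.0, 31.6 and 23.9 TPM. Hdac8, which works outside such complexes, stood at 3.84, 3.51 and 4.93 TPM, 2.55 ± 0.50 log2 units below Hdac3. Of 20 corepressor subunits, 19 were at 1 TPM or more in every library. They were led by the methyl-CpG-binding Mbd2 (119.5, 197 and 112 TPM), by Ncor1 (65.5, 231 and 62.5 TPM) and by Sin3b (117, 57.7 and 129 TPM), and Rcor2 was lowest (0.15, 0.06 and 0.06 TPM). Ncor1 was highest and Sin3b lowest in replicate 2.

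The other zinc-dependent deacetylases were low except for Hdac5. Hdac5, a class IIa enzyme that shuttles between nucleus and cytoplasm, stood at 16.1, 7.36 and 27.8 TPM, and Hdac7 at 3.10, 1.14 and 2.72 TPM, 2.74 ± 0.50 log2 units lower. Hdac4 (2.57, 1.29 and 1.80 TPM) and Hdac9 (2.05, 1.69 and 1.44 TPM) were not separated, with a log2 ratio of 0.08 ± 0.39. Hdac6, a tubulin deacetylase (2.30, 2.64 and 2.65 TPM), and Hdac10, a polyamine deacetylase (3.24, 1.27 and 4.04 TPM), changed order between libraries. Hdac11, the class IV enzyme, had 1, 9 and 14 counts (0.02, 0.11 and 0.19 TPM). For Hdac4, Hdac11 and Sirt3, 22.4%, 17.9% and 12.7% of exonic bases lie opposite other annotated genes.

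Sirtuins held both the highest gene of the set and several low ones. Sirt2 (chr7:28766735-28788661, plus strand), a mostly cytoplasmic deacetylase of tubulin and other proteins, stood at 93.5, 111 and 97.1 TPM, a mean of 101 ± 9.51 TPM that exceeded 87.9% of detected protein-coding genes. Sirt7, a nucleolar sirtuin, followed at 45.7, 15.3 and 49.1 TPM and the chromatin-bound Sirt6 at 22.1, 4.30 and 14.3 TPM. Both were lowest in replicate 2. Sirt1, a nuclear deacetylase of the NF-kB subunit p65 among other targets, stood at 5.21, 4.11 and 4.46 TPM. It lay below Sirt6 in each library, by a log2 ratio of -2.07, -0.06 and -1.65. The mitochondrial sirtuins were low: Sirt3 stood at 4.89, 1.01 and 6.94 TPM, Sirt4 at 6.76, 2.41 and 7.94 TPM and Sirt5 at 2.23, 1.17 and 3.10 TPM. Most of the level of Sirt4 lay outside protein_coding transcripts. Over those alone Sirt4 stood at 1.02, 0.48 and 0.97 TPM. That was below Sirt3 (4.52, 0.84 and 6.65 TPM) and Sirt5 (2.23, 1.13 and 3.09 TPM) in each library. Sirt2 exceeded Sirt3 by 4.23, 6.65 and 3.79 log2 units, the largest difference of the 20 and also the most variable (SD 1.54).

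**Figure D2:**
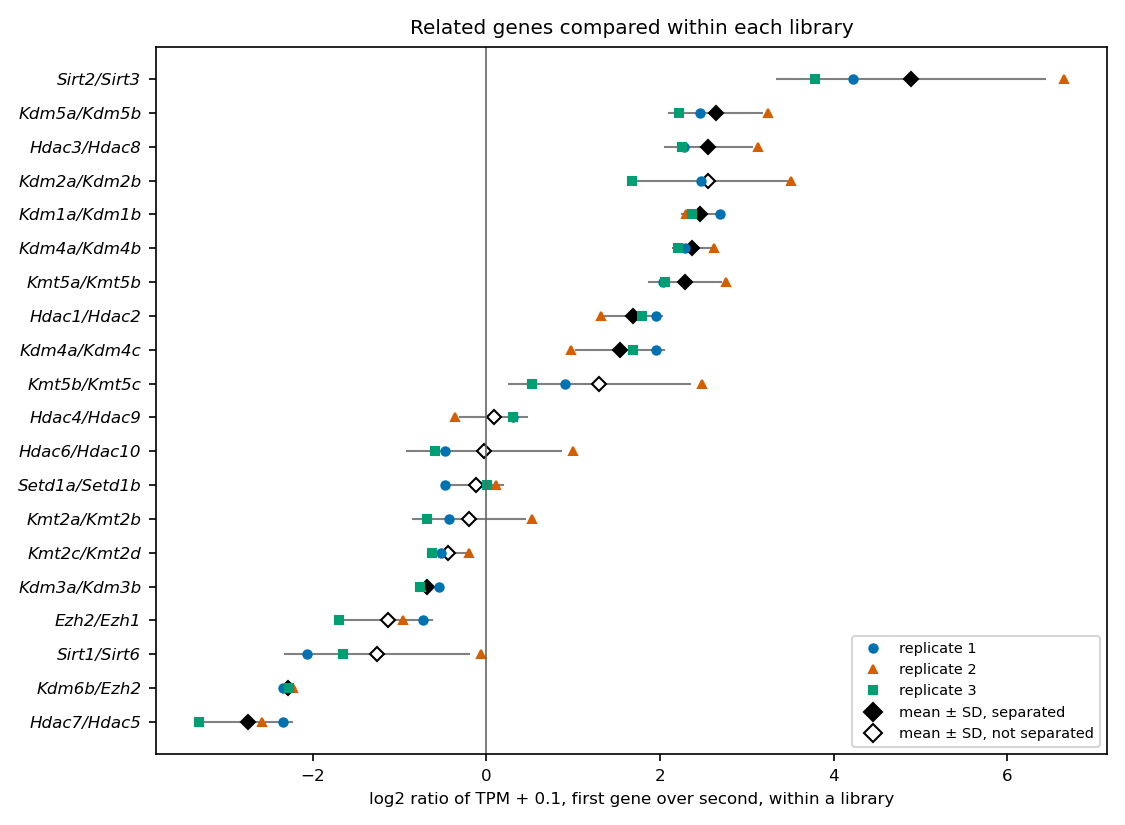
Log2 ratio of TPM + 0.1 of the first gene to the second within each library (coloured points) for 20 pairs of related genes, with mean ± SD (diamonds and bars). Filled diamonds mark the 11 pairs whose ratio kept 1 sign and whose mean exceeded 3 SD. In Sirt2/Sirt3, Sirt1/Sirt6, Kmt5b/Kmt5c and Hdac6/Hdac10 replicate 2 lies farthest from the mean.

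Of the 20 pairs, 16 had 1 sign in all libraries and 11 were separated by the rule of 1 sign and a mean beyond 3 SD. With 3 libraries an exact sign-flip test cannot give a p below 0.25, so no p is given. Leaving out replicate 2 raised the number to 17, adding Hdac4 over Hdac9, Hdac10 over Hdac6, Kdm2a over Kdm2b, Kmt2b over Kmt2a, Kmt2d over Kmt2c and Sirt6 over Sirt1. Leaving out replicate 1 lowered it to 9, without Kdm4a over Kdm4c and Sirt2 over Sirt3. With 2 libraries the SD of a ratio is itself poorly known.

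The spread between libraries was tested gene by gene. None of the 49 genes of the set with enough counts varied beyond the trend for genes of their level (edgeR quasi-likelihood fit, F test on the residual dispersion, one-sided, Benjamini-Hochberg adjustment over 11950 genes), and 0.0% of all genes tested did. At an unadjusted p under 0.05, 2 of the 49 and 4.24% of all genes passed. Those 2 were Kmt2e and Kmt5a (edgeR, adjusted p = 0.93 for each). DESeq2 marked 17 dispersion outliers among all genes and none in the set. In simulated counts as dispersed as these libraries, the edgeR test found most very large changes of a gene in 1 library but missed nearly all moderate ones, so a count of 0 does not show even expression. Counting noise was exceeded by 45 of the 49 (chi-square test on scaled counts, adjusted over all genes) against 87.9% of all genes tested. The exceptions were Hdac4, Hdac8, Kdm1a and Setd6. Without replicate 2 the number was 25 of 49, against 6695 of 12181 genes (55%).

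Across the set, the deviation of replicate 2 went with base composition. Deviations of a library are given here as log2 counts scaled by edgeR's TMM factors minus the mean of the 3 libraries. GC content and length are those of the leading transcript, the one with the highest mean TPM over the same 3 libraries. Replicate 2 thus had a part in choosing it. For Kmt5a, Kmt2b and Kdm2a that transcript led in replicate 2 alone. Genes with the lowest deviations in replicate 2 were Sirt3 (-1.42), Setd4 (-0.97), Sirt6 (-0.90), Hdac7 (-0.76), Hdac5 (-0.75), Kdm4b (-0.74) and Sirt7 (-0.72), and those with the highest were Kmt2e (1.12), Kmt5a (0.98), Kmt2a (0.78), Kdm6b (0.62) and Kdm2a (0.56). Of 15 genes whose leading transcript had a GC content of 55% or more, 11 lay below 0 in replicate 2, with a median of -0.55, where 79.4% of all 2643 such genes lay below 0, with a median of -0.45. Of 11 genes under 45% GC, 2 lay below 0, with a median of 0.21, where 26.6% of 3004 such genes did, with a median of 0.24. Over the 49 genes Spearman's rho between deviation and GC content was -0.47 in replicate 2 and 0.39 and 0.45 in replicates 1 and 3. Over 11941 genes tested it was -0.47 in replicate 2 and 0.28 and 0.45 in replicates 1 and 3. The deviations of a gene sum to 0 over the 3 libraries, so the rho values of the libraries are not separate observations. These values describe points that share a library, so no p is given. Transcript length went the other way, with rho of 0.48 over the 49 genes and 0.18 over all genes in replicate 2. The mitochondrial share, Cd4, GC content and length all moved with replicate 2, and their part in the deviations was not tested.

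**Figure D3:**
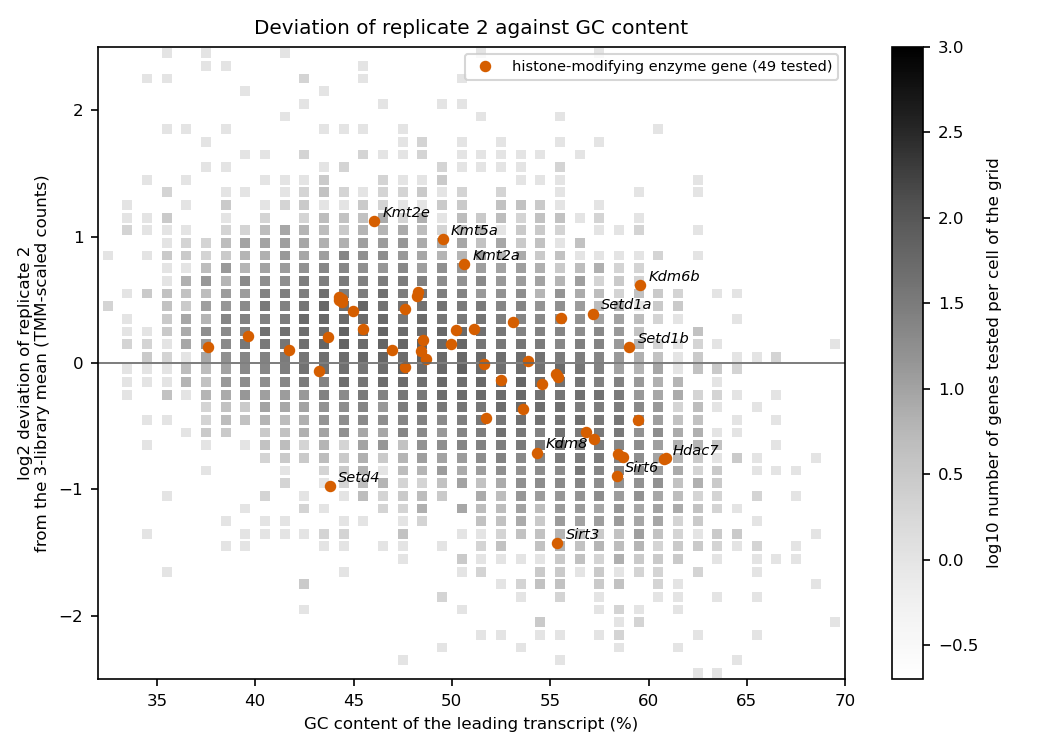
Deviation of replicate 2 from the 3-library mean (log2, TMM-scaled counts) against the GC content of each gene's leading transcript. Orange points are the 49 genes of the set that were tested and grey cells count all genes tested. Sirt3, Sirt6 and Hdac7 lie low among GC-rich transcripts. Kmt2e and Kmt5a lie high at lower GC content, and Kdm6b lies high despite being GC-rich. Kmt5a is placed by Kmt5a-213, which led in replicate 2 alone.

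Stretches of coding sequence show what these differences in base composition look like. For each of 4 transcripts, the 120 bases of the longest coding exon whose GC content was nearest that of the whole coding part are printed 5′ to 3′ on the transcript strand, with G and C in capitals (GENCODE M21, mm10). Sirt3-202 (chr7:140877683-140877802, minus strand) and Sirt6-201 (chr10:81622491-81622610, minus strand) were low in replicate 2 and had 55.6% and 61.5% GC over the coding part. Kdm6b-201 (chr11:69404991-69405110, minus strand) was as GC-rich, at 61.7%, and yet high in that library. Kmt2e-201 (chr5:23502175-23502294, plus strand), of the gene with the highest deviation in replicate 2, had 47.6%.
Sirt3-202: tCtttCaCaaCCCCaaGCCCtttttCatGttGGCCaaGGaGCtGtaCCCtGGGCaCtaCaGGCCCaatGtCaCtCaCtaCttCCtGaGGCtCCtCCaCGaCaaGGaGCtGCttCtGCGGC
Sirt6-201: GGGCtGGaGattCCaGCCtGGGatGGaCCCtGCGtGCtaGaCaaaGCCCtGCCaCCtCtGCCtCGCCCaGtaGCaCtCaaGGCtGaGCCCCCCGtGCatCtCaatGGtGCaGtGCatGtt
Kdm6b-201: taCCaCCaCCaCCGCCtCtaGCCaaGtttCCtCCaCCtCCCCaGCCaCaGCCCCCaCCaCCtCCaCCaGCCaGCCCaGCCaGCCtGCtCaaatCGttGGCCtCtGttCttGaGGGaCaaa
Kmt2e-201: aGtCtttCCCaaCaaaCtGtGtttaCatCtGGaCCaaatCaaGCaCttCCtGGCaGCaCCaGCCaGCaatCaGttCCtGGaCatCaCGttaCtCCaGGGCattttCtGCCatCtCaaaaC

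The level of a gene sums over all its annotated transcripts. In this set a part of it lay in transcripts that are not annotated as coding for the enzyme. These are retained introns, targets of nonsense-mediated decay, and processed transcripts without a reading frame. For the 25 genes at a mean of 10 TPM or more, the median share of TPM in such transcripts was 14.9%, against 3.92% over 6273 protein-coding genes at that level. The medians of the 25 were 15.8%, 11.9% and 10.5% in replicates 1, 2 and 3. The leading transcript was not protein_coding for Kdm5a, Kmt2b, Kmt5a, Setd4, Setd6, Sirt1 and Sirt4 in the first quantification. The second quantification gave Kdm4b and Kmt2a in addition and Sirt1 no longer. The share of all genes led by such a transcript was not computed, so these names do not set the group apart. Which transcript a read is credited to is an estimate where transcripts share exons.

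The balance of transcripts differed most in replicate 2. Over 50% of TPM lay outside protein_coding transcripts for Hdac3, Kdm5a, Kmt2a, Kmt2b and Kmt5a in replicate 2 (5 of 25, where 12.0% of all genes at that level did so), for Kdm5a alone in replicate 1 (5.75% of all genes) and for Hdac5 alone in replicate 3 (5.79% of all genes). Kmt2a-204, a target of nonsense-mediated decay, stood at 0.08, 18.0 and 0.00 TPM. Kmt2b-208, a retained-intron transcript, stood at 0.73, 18.7 and 0.62 TPM, Hdac3-204 at 1.03, 19.7 and 0.00 TPM, and Kdm5a-205 at 0.00, 9.07 and 0.15 TPM. The second quantification also put replicate 2 highest for each of the 4, with 17.9, 19.0, 20.7 and 10.9 TPM in replicate 2.

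Counted over protein_coding transcripts alone, several genes ranked the libraries differently. Kmt2b stood at 9.25, 4.44 and 8.17 TPM, Hdac3 at 17.3, 11.5 and 22.6 TPM and Kdm5a at 6.35, 4.64 and 5.83 TPM, so replicate 2 went from the highest to the lowest library for these genes. Kmt5a was level between replicates 1 and 2, at 36.1, 36.2 and 29.0 TPM. Kmt2a stayed highest in replicate 2 at 8.58, 16.1 and 5.96 TPM, and Kmt2e at 16.5, 37.4 and 13.8 TPM. Sirt7 and Hdac5 stayed lowest there, at 33.2, 11.6 and 40.9 TPM and at 9.23, 5.17 and 13.1 TPM. The protein_coding class also holds short transcripts. Kmt2a-206, of 521 bases, took 6.65 TPM in replicate 2, and Kmt2a-201, of 16461 bases, stood at 7.26, 9.49 and 3.90 TPM. Kmt2d-204, of 899 bases, stood at 6.87, 6.69 and 9.11 TPM. Kdm1a-207, of 751 bases, stood at 0.00, 9.10 and 0.00 TPM. The count over protein_coding transcripts alone was chosen after the values were seen.

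**Figure D4:**
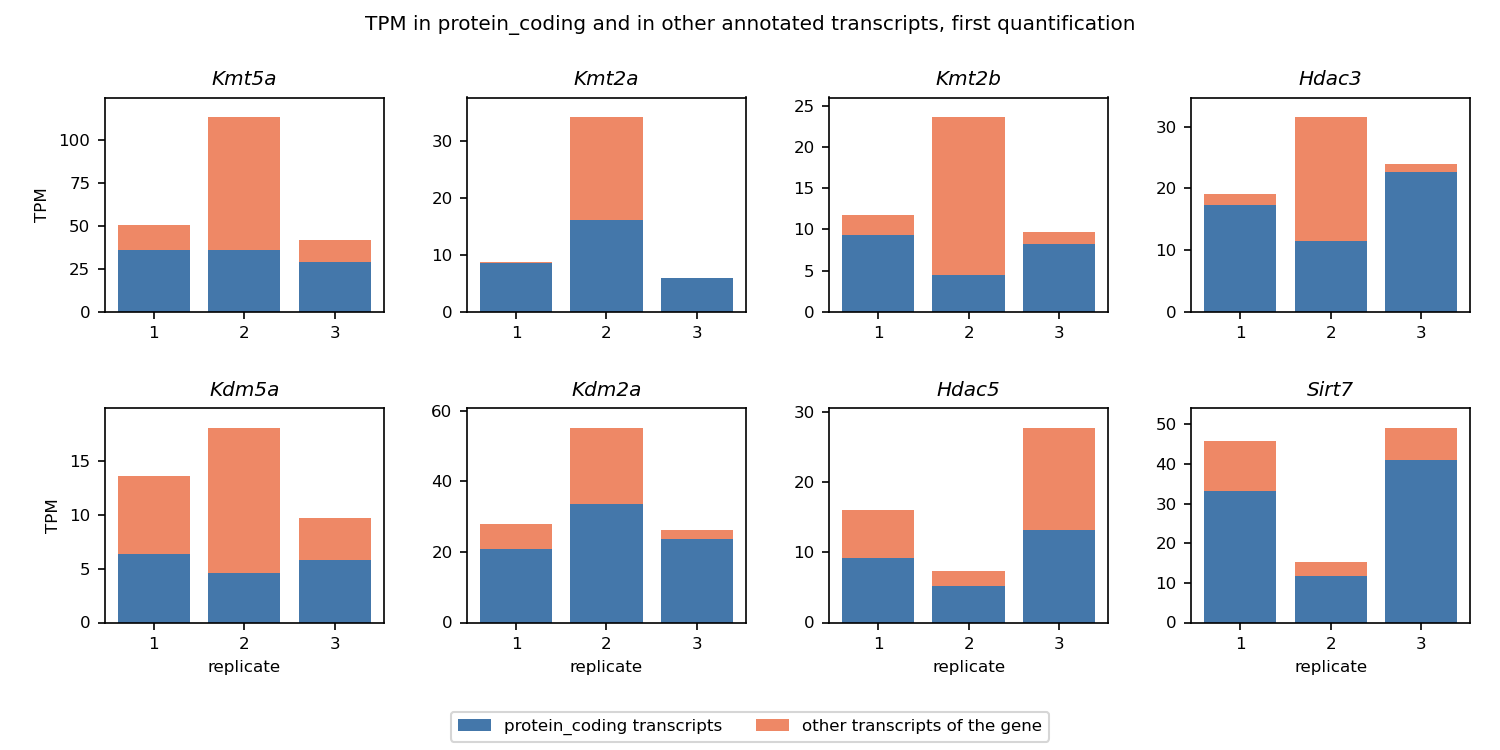
TPM of 8 genes in each replicate, split into protein_coding transcripts (blue) and other annotated transcripts of the gene (orange), first quantification. In replicate 2 the orange part exceeds the blue for Kmt5a, Kmt2a, Kmt2b, Hdac3 and Kdm5a, and of these genes the blue part of Kmt2b, Hdac3 and Kdm5a is lowest there.

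The transcript with the highest mean TPM of Kmt5a led in replicate 2 alone, and Kmt5a-201 led in the other libraries. Kmt5a-213, annotated as a target of nonsense-mediated decay, stood at 9.66, 73.6 and 9.51 TPM and the coding Kmt5a-201 at 29.7, 22.4 and 24.4 TPM. Kmt5a-213 is 1789 bases long against 2739 in Kmt5a-201. Within the coding part it lacks the exon chr5:124445969-124446084 of 116 bases, which shifts the reading frame, and its annotated coding part ends after 38 codons, where Kmt5a-201 has 350. All 1789 bases of Kmt5a-213 lie in exons of Kmt5a-201, so reads across the skipped junction and the relative depth along the exons are what tell them apart. The coding start of both is printed 5′ to 3′ (plus strand), with the skipped exon in capitals in Kmt5a-201 and the stop codon in capitals in Kmt5a-213.
Kmt5a-201: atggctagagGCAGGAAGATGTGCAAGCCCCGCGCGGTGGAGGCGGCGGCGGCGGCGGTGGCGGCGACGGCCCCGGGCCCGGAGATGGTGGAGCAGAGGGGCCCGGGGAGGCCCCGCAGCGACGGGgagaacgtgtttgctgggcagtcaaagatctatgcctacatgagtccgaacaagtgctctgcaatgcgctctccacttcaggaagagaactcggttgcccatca
Kmt5a-213: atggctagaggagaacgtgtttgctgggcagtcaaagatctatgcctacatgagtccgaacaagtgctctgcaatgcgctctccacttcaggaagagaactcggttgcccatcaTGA

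The isoforms of Sirt2 differed between libraries within the coding class. Sirt2-202 stood at 43.1, 20.0 and 42.0 TPM and Sirt2-201 at 39.2, 13.7 and 46.3 TPM, while Sirt2-209 stood at 7.96, 72.7 and 7.62 TPM. Replicate 2 was thus low for Sirt2-202 and Sirt2-201 and high for Sirt2-209, while the sums for the gene were close. Sirt2-209 lacks the exons chr7:28771811-28771859 and chr7:28772095-28772208 and starts translation in the first exon, and it is annotated with 319 codons where Sirt2-202 has 352. The coding start of each up to the end of the first coding exon they share is printed 5′ to 3′ (plus strand). Capitals mark coding bases of Sirt2-202 that are absent from Sirt2-209, and bases of Sirt2-209 that are not coding in Sirt2-202. The second quantification gave Sirt2-209 at 4.42, 57.5 and 4.93 TPM. Of its 1585 bases, 1584 lie in exons of Sirt2-202. Reads across junctions and the relative depth along the exons are thus what tell them apart, and the split is an estimate.
Sirt2-202: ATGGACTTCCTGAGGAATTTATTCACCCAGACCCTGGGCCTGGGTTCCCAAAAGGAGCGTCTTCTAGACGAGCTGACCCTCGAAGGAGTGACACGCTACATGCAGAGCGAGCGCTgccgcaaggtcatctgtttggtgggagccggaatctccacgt
Sirt2-209: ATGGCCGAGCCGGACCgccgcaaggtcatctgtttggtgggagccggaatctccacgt

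The retained-intron transcript of Kmt2b rests on little sequence of its own. Of the 651 bases of Kmt2b-208, 638 lie in exons of the coding Kmt2b-201 and 13 at its 5′ end do not, and the second quantification credited it with 3.2, 367 and 2.5 estimated counts. Its 5′ end (chr7:30577092-30577164, minus strand) is printed 5′ to 3′ with those 13 bases in capitals. Kmt2a-204 has 101 of 2146 bases outside the exons of Kmt2a-201, Hdac3-204 has 240 of 1040 outside Hdac3-201, and Kdm5a-205 has 237 of 689 outside Kdm5a-201.
Kmt2b-208: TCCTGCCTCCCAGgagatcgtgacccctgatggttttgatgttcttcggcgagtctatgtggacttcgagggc

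The leading transcript of a library was not fixed. Of the 25 genes at 10 TPM or more, 12 had 1 leading transcript in all libraries, where 72.6% of all genes at that level did. Replicate 2 alone named another transcript than the one shared by the other libraries for Hdac3, Kdm1a, Kdm2a, Kmt2a, Kmt2b, Kmt2c, Kmt5a and Kmt5b (8 of 25, against 20.8% of all genes). Replicate 1 alone did so for Kmt2d (2.5% of all genes) and replicate 3 alone for Hdac5 and Setd2 (2.04% of all genes), and Kdm5a and Sirt2 had a different leader in each library. Between the quantifications the leader by mean TPM was the same for 19 of 25, against 90.2% of all genes. The 6 others were Kdm2a, Kmt2a, Kmt2c, Kmt2d, Kmt5b and Sirt2.

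At the level of genes, the quantifications gave close values. None of 49 genes of the set differed by 1 log2 unit or more at an adjusted p under 0.05 (limma on within-library differences of log2(TPM + 1)), where 1.62% of 10191 genes did. At an unadjusted p under 0.05, 3 of the 49 passed, against 6.03% of all genes. These were Sirt5, 0.48 log2 units lower in the first quantification (-0.21, -0.99 and -0.24, adjusted p = 0.20, limma), Setd2, 0.42 higher (0.62, 0.23 and 0.41, adjusted p = 0.43), and Kdm4b (-0.39, adjusted p = 0.59). These sit on a shift common to all genes, whose median difference, first minus second, was 0.42, -0.05 and 0.09 in replicates 1, 2 and 3. With these medians subtracted, 17 of the 49 passed at an unadjusted p under 0.05, against 26.0% of all genes, and again none at an adjusted p.

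Enzymes outside the symbol rule had levels in the same range. Of 15 other histone methyltransferases 14 were at 1 TPM or more in every library, led by Nsd3 (60.6, 117 and 49.2 TPM), the H3K9 writers Ehmt2 (87.0, 38.9 and 74.3 TPM) and Setdb2 (52.5, 40.5 and 31.9 TPM), with Suv39h2 lowest (0.67 ± 0.28 TPM). Of 6 other JmjC proteins 4 were, led by Riox2 (44.7 ± 5.38 TPM), Jmjd1c (26.0, 28.2 and 26.8 TPM) and Jmjd6 (16.2 ± 4.25 TPM), and Hr was listed at 0 TPM in each library. All 10 acetyltransferases, which put on the marks that deacetylases remove, were at 1 TPM or more. Hat1 led them (137, 85.5 and 108 TPM), Kat2b (33.9 ± 6.11 TPM) and Kat5 (32.7 ± 3.29 TPM) followed, and Kat6b was lowest (2.09 ± 0.33 TPM). The median of their means, 26.6 TPM, lay above the 9.29 TPM of the 51 genes. None of the genes in the 6 lists of partners and other enzymes varied beyond the trend (edgeR, 0 of 68 tested, against 0.0% of all genes). At an unadjusted p under 0.05, 4 of the 68 passed, near the 4.24% of all genes.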

How the data were processed

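Polyadenylated RNA of 3 libraries of 1 group was quantified in mm10 with GENCODE M21, as the deposited notes state. The members and lists were chosen with earlier results of these data known. The deposited first tables hold expected counts and TPM per gene and transcript, per the file headers, in the column layout of RSEM. The deposited second tables hold estimated counts and TPM per transcript, per the file headers, in the layout of kallisto. Tool names, versions and strandedness were not given in the sources used here. Expected counts share a read among transcripts it fits, so transcript levels are model estimates. Other entries than annotated genes took 0.0875%, 0.0464% and 0.0636% of counts and were left out of tests. The second tables were summed to genes.

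Rounded expected counts of 11950 genes kept by filterByExpr went into edgeR 4.0.16 (TMM factors 1.01, 0.886 and 1.12, intercept only, F test of residual dispersion) and a chi-square test. Quantifications were compared with limma 3.58.1, and DESeq2 1.42.0 was an alternative. The edgeR and limma tests were tested on simulated data. Detection was set at 1 TPM, transcript results at a mean of 10 TPM, log2 values used TPM + 1 (pairs TPM + 0.1), and adjusted p at 0.05. Shares of counts and floors cover counting error only. Every gene of the set was to be named, with values per library for the highest, the lowest, those in pairs and those led by a transcript that is not protein_coding. Of each list of partners and other enzymes the 3 highest and the lowest were named. Genes of the cell type marker lists were named only in part. Another list is not reported here. Transcript sequences and structures came from GENCODE M21. Alternatives were other thresholds and pseudocounts, no filter, the second quantification, DESeq2, protein_coding transcripts alone, library medians subtracted, and leaving out each library.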

Additional observations from a re-analysis of the deposited data

How the results depend on the processing

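Counts of genes kept within 1.5 times under the alternatives tried, with these exceptions. Leaving out a library gave 25 to 42 genes beyond counting noise, where all libraries gave 45, and 9 to 17 separated pairs, where all gave 11, both extremes of 25 and 17 coming without replicate 2. Lowering the level to a mean of 1 TPM gave 37 of 49 genes with the same leader in both quantifications and 29 of 49 with 1 leader in all libraries, since more genes are counted. Against all protein-coding genes without a filter the difference of median levels was 2.97, where that against detected genes was -0.65, since undetected genes enter. No gene of the set varied beyond the trend under any alternative, while all genes gave 64 without a filter and 7 to 20 with a library left out. Between quantifications all genes gave 253 calls with a pseudocount of 0.1, 0 without a filter and 84 with library medians subtracted, where 165 were called with the settings of the report, and none was in the set. By CPM without length 12 pairs were separated, with Ezh2/Ezh1, Kdm2a/Kdm2b and Kmt5b/Kmt5c added and Kdm6b/Ezh2 and Kmt5a/Kmt5b lost. Without replicate 3 the number was also 12, with Ezh2/Ezh1 and Kdm2a/Kdm2b added and Kdm4a/Kdm4c lost. Protein_coding transcripts alone moved 14 of 51 mean levels by more than 1 SD, and the second quantification 11. That alternative, the subtraction of medians and the counts of 1 leader were chosen after seeing the data. No paired analysis was possible because there is 1 group. Setd4, Setd6, Sirt3, Sirt4, Sirt5, Kdm8, Hdac11 and Kdm4d had under 100 counts in at least 1 library, so their values carry the largest counting error.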
